A study of Mus musculus with 6 samples.

Results

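Phagocytosis checkpoint signals are the surface and secreted proteins that tell a phagocyte to spare or to engulf a neighbouring cell. The 10 genes described here were chosen by symbol: Cd47 and its receptor gene Sirpa, Cd200 and its receptor gene Cd200r1, Cd24a, Calr and its receptor gene Lrp1, and Gas6 with its receptor genes Axl and Mertk. All 10 had 1 row each among the 28368 genes of the count table, and all 10 passed the filter on low counts. Polyadenylated RNA had been sequenced from whole mouse tumours. Of the 6 libraries, 3 came from mice under MS-DF-MS therapy (12 h) and are called treated, and 3 from untreated mice, called control. By the title of the series, the therapy is an implanted depot that releases an agonist of STING, a sensor pathway for DNA in the cytosol, and an inducer of apoptosis. Neither the drugs, the tumour type, the mouse strain nor the age of the animals is named in the labels. No library came from a tumour with an empty depot, so an effect of the implant and an effect of the drugs cannot be told apart. Libraries are numbered 1 to 3 within a group. Whether they come from different animals is not stated in the labels, and p-values therefore cover only the variation among these 6 libraries, some of which may be technical.

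CD47 on a cell binds SIRPα on macrophages, and SIRPα then recruits the phosphatases SHP-1 and SHP-2 and holds back engulfment. CD200 gives a comparable restraining signal through CD200R1 on myeloid cells, and CD24 does so through Siglec-10 in human and Siglec-G in mouse. Calreticulin works the other way: it is a chaperone of the endoplasmic reticulum that, once exposed on the surface of a dying cell, can be recognised through LRP1 as a signal to engulf. GAS6 bridges phosphatidylserine on dying cells to the receptor tyrosine kinases AXL and MERTK, which drive uptake and dampen inflammation.

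Total counts ran from 64505780 to 66634551 in treated and from 57017043 to 64172654 in control libraries. Treated 3 stood apart on the first principal component of log2 CPM (counts scaled to library size), at 72.9, against -37.9 to 13.3 in the other 5 libraries. It also had the lowest value of the 3 treated libraries for 8 of the 10 genes, all but Sirpa and Mertk. The share of all genes with their lowest treated value in treated 3 was not counted. Pigment cell markers were abundant: 7 of them summed to 6358 to 6802 FPKM (fragments scaled to gene length and library size) in treated and 5954 to 6514 FPKM in control tumours. Defining markers of macrophages, vessels and fibroblasts were detected in every library, and no marker gene present in the table was at 0 in all libraries. In whole tumour RNA, fewer cells of a type and less RNA per cell cannot be told apart.

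Cd47 and Cd200, the genes of both ligands that restrain phagocytes through SIRPα and CD200R1, were higher in treated tumours, by 1.66-fold and 2.96-fold. The genes of their receptors did not pass the threshold, nor did Cd24a, the calreticulin genes or the GAS6 genes. In edgeR's quasi-likelihood test, with Benjamini-Hochberg adjustment over 18049 genes and a threshold of 0.05, 2 of 10 genes rose, beside 1.36% of all genes tested that rose. By the same test 0 of 10 fell, beside 0.249% of all genes. An unadjusted p under 0.05 was found for 3 of the 10 (Cd47, Cd200 and, lower, Calr), beside 16.0% of all genes. DESeq2 called the same 2 genes higher and 0 lower, beside 4.18% and 2.03% of all genes (6.21% in either direction). With limma-voom the counts were again 2 and 0, beside 1.21% and 0.244%. The median log2 fold change of the 10 genes was 0.23, beside -0.003 over all genes tested. CPM values of the groups did not overlap for 3 of the 10 genes (Cd47, Cd200 and Calr), beside 23.3% of all genes tested.

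**Figure D1:**
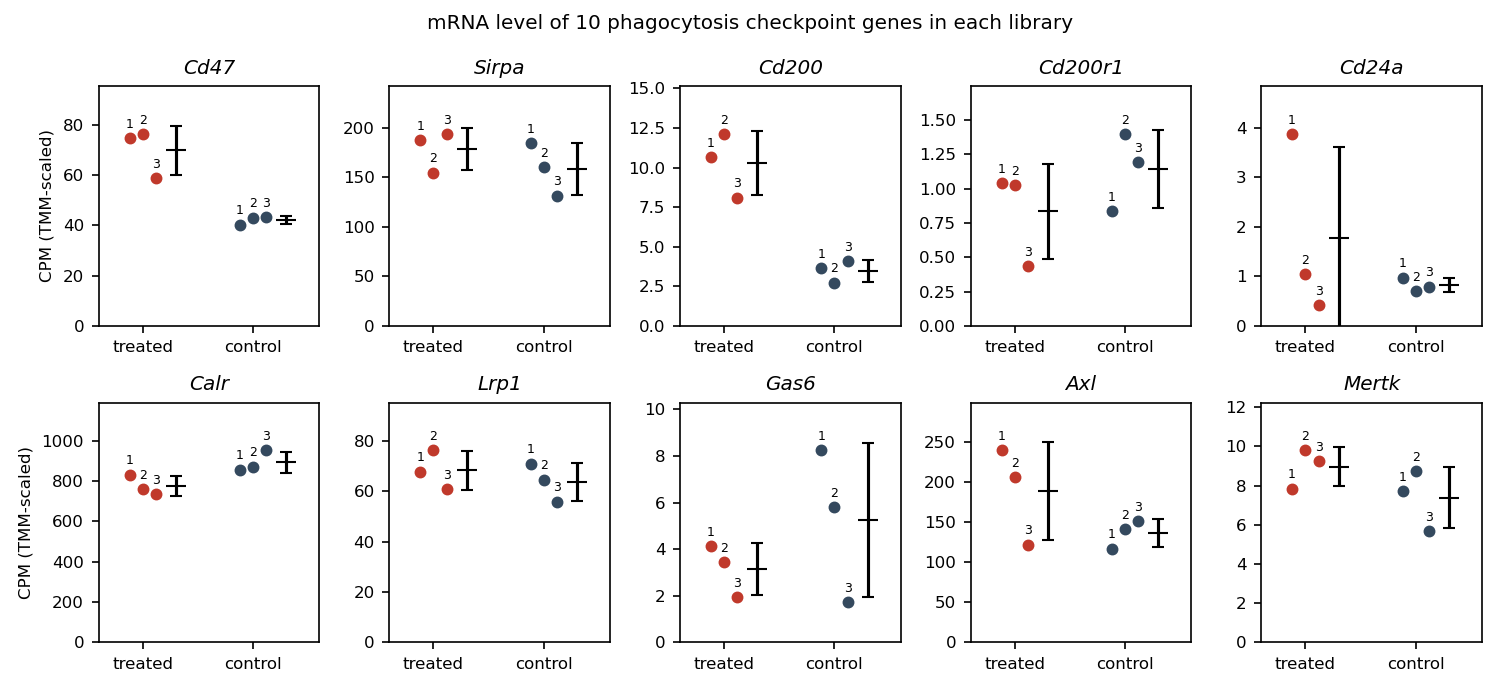
CPM, scaled by TMM, of each gene (one panel each, y axes from 0) in the 3 treated libraries (left, red) and the 3 control libraries (right, dark blue); numbers beside points are library numbers, and the bar is the mean with the SD over 3 libraries, cut at 0 for Cd24a. Treated libraries lie above all controls for Cd47 (58.7 to 76.4 against 40.3 to 43.3 CPM) and Cd200 (8.10 to 12.1 against 2.73 to 4.09 CPM) and below all controls for Calr.

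Per length, the levels of the 10 genes differed widely. Calr was the most abundant, at a mean of 256.4 FPKM over all 6 libraries. Sirpa followed with 30.4 FPKM and Axl with 28.6 FPKM, and their ranges overlapped in both groups. Cd47 came next at 7.89 FPKM, and its range overlapped neither that of Axl nor that of Lrp1. Lrp1 stood at 3.29, Cd200 at 1.82, Mertk at 1.66 and Gas6 at 1.46 FPKM, each overlapping the next over all libraries. Cd24a (0.444 FPKM) and Cd200r1 (0.258 FPKM) were the lowest and overlapped. Within treated tumours alone Cd200 lay above Mertk without overlap, at 2.17 to 3.15 against 1.61 to 1.96 FPKM. In control tumours the order was the other way round, also without overlap, at 0.722 to 1.09 FPKM for Cd200 and 1.16 to 1.78 FPKM for Mertk.

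Cd47 (ENSMUSG00000055447, chromosome 16, 49800533 to 49911091, plus strand) had 74.8, 76.4 and 58.7 CPM in treated 1, 2 and 3, against 40.3, 43.1 and 43.3 CPM in control 1, 2 and 3. Every treated library was above every control, and treated 3 was the lowest of its group. Treated tumours averaged 70.0 ± 9.80 CPM and control tumours 42.2 ± 1.70 CPM (SD, n = 3 each). The log2 fold change was 0.73 ± 0.11 (SE), with a 95% interval of 0.48 to 0.97 (edgeR adjusted p = 0.018). Its call was kept without treated 1 or treated 3. Without treated 2 the edgeR adjusted p was 0.0782, and without control 1, 2 or 3 it was 0.0798, 0.109 or 0.0894, while the log2 fold change over the 6 leave-outs stayed between 0.67 and 0.84. Red blood cells also display CD47, and the summed level of 6 erythroid markers was 1740, 563.9 and 309.9 FPKM in treated 1, 2 and 3, against 115.8, 197.6 and 294.4 FPKM in the controls. None of the 5 erythroid markers tested passed the threshold. By edgeR 4 of the 5 had an unadjusted p under 0.05, all higher in treated, beside 16.0% of all genes. Their median log2 fold change was 1.99. The part of the erythroid markers in the Cd47 result was not tested.

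The genes of both called ligands lie on chromosome 16, and their promoter windows are shown because these are the members that rose. RefSeq (GRCm38.p6) gives a window of 250 bases before to 50 after the start of transcription for 7 of the 10 genes (not Sirpa, Cd200r1 or Cd24a). Each is written 5′ to 3′ on the gene's own strand, with CpG dinucleotides in capitals, Cd47 from chr16:49855404-49855703 on the plus strand and Cd200 from chr16:45409004-45409303 on the minus strand.
Cd47: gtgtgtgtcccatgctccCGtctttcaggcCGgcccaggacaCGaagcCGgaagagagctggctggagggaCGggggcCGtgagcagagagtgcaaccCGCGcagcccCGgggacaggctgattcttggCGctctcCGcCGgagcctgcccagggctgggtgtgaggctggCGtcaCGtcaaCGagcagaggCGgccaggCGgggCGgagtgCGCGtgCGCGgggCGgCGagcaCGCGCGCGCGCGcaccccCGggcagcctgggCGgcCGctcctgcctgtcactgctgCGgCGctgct
Cd200: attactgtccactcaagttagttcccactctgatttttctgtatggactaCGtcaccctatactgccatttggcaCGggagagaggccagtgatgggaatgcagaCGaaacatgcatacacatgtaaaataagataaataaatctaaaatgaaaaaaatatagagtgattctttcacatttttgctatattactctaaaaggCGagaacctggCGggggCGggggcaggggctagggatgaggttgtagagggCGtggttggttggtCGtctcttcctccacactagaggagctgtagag
The Cd47 window held 35 CpG dinucleotides and 74.0% G and C, and the Cd200 window 8 and 45.0%, beside medians of 7 and 52.7% over all 32851 windows. Each window was searched on both strands for the interferon-stimulated response element (GAAA, any 2 bases, GAAA), the gamma-activated site (TTCNNNGAA) and an NF-kB site (GGGA, any base, TTTCC). Neither the Cd47 nor the Cd200 window held any of these, which says only that these letters are not in this stretch. Of the 8 windows of the 7 genes (Cd47 has a second, nearly the same), 1 held a match, the gamma-activated site in Lrp1, 232 bases before the start. Over all windows 3.44%, 8.3% and 0.411% held the response element, the gamma-activated site and the NF-kB site. The RefSeq start of Cd47 lies 55121 bases inside the span given in the deposited table.

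Sirpa (chromosome 2, 129592835 to 129632228) had 187.7, 154.5 and 193.8 CPM in treated libraries, against 184.2, 160.3 and 131.4 CPM in controls. The groups overlapped, and the log2 fold change was 0.17 ± 0.13 with a 95% interval of -0.14 to 0.48 (edgeR adjusted p = 0.597). As a ratio the interval runs from 0.909 to 1.39. The summed level of 11 macrophage markers was 121.0, 68.9 and 33.6 FPKM in treated 1, 2 and 3, against 84.9, 81.4 and 67.2 FPKM in the controls. Treated 3, the library with the lowest macrophage sum of all 6, had the highest Sirpa level, at 35.1 FPKM against 23.7 to 34.0 FPKM in the other 5. Csf1r, the receptor gene that defines the macrophage lineage, stood at 0.505 FPKM in that library, against 1.19 to 2.26 FPKM in the others. Sirpa has the Sirpb1 genes as close relatives, which can share reads with it.

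Among genes around CD47 and SIRPα, Thbs1 rose and the other 8 tested did not pass the threshold. Thbs1 encodes thrombospondin-1, a secreted matrix protein that is also a ligand of CD47. It had 116.1, 159.1 and 134.3 CPM in treated 1, 2 and 3, against 42.1, 41.2 and 36.5 CPM in control 1, 2 and 3. All treated libraries, treated 3 among them, were far above every control. Its rise was 3.42-fold (1.77 ± 0.12 on the log2 scale, SE, edgeR adjusted p = 0.00036), and the call was kept with each of the 6 libraries left out, with an adjusted p of at most 0.0062. Qpctl, whose enzyme modifies CD47 at the site that SIRPα binds, differed by 0.31 ± 0.16 on the log2 scale, short of the threshold (edgeR adjusted p = 0.387). Ptpn6 (-0.03 ± 0.10) and Ptpn11 (0.05 ± 0.07), the genes of SHP-1 and SHP-2, had edgeR adjusted p-values of 0.924 and 0.777.

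Cd200 (ENSMUSG00000022661, chromosome 16, 45382135 to 45409053, minus strand) had 10.7, 12.1 and 8.10 CPM in treated tumours, against 3.63, 2.73 and 4.09 CPM in controls. The lowest treated library, treated 3, was well above the highest control. Behind these values were 538 to 780 counts in treated and 176 to 235 counts in control libraries. On the log2 scale the rise was 1.56 ± 0.22 (SE), with a 95% interval of 1.05 to 2.07 (edgeR adjusted p = 0.0159). As for Cd47, the call was kept without treated 1 or treated 3. It was lost without treated 2 (edgeR adjusted p = 0.0745) and without control 1, 2 or 3 (0.0724, 0.0862 and 0.0563), with log2 fold changes of 1.42 to 1.71 over the leave-outs.

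Endothelial cells are among the cells known to carry CD200, and endothelial markers were also measured. Their summed level over 10 genes, without overlap, was 87.4, 85.8 and 81.8 FPKM in treated and 64.8, 67.0 and 65.3 FPKM in control tumours. Most of that sum was Eng, at 57.65 to 59.31 FPKM in treated and 50.03 to 52.18 FPKM in control tumours. Of the 10 genes 5 rose (Pecam1, Cdh5, Tie1, Emcn and Robo4) and 0 fell, beside 1.36% and 0.249% of all genes tested. The median over the list was 0.88 on the log2 scale. The 5 ran from 1.80-fold (Emcn) to 2.73-fold (Robo4), with Pecam1, which encodes the junction protein CD31, at 2.46-fold. The other 5 did not pass the threshold, at log2 fold changes of 0.95 (Cldn5), 0.28 (Kdr), 0.20 (Eng), 0.004 (Tek) and -0.49 (Vwf, von Willebrand factor, unadjusted p = 0.0391, edgeR adjusted p = 0.284). The summed level of 7 T cell markers went the other way, at 2.275, 1.309 and 0.824 FPKM in treated 1, 2 and 3. Controls had 2.545, 2.693 and 3.242 FPKM, without overlap. By edgeR 0 of these 7 genes passed the threshold, and 2, lower in treated, had an unadjusted p under 0.05, beside 16.0% of all genes. The part of the endothelial or T cell genes in the Cd200 result was not tested.

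Cd200r1 (chromosome 16, 44765736 to 44794978) was scarce, with 68, 66 and 29 counts in treated and 54, 90 and 68 counts in control libraries. In CPM these were 1.04, 1.03 and 0.437 in treated, against 0.834, 1.40 and 1.19 in control tumours, with overlap. Its log2 fold change was -0.45 ± 0.42, and its 95% interval, -1.42 to 0.51, leaves room for a change in either direction (edgeR adjusted p = 0.665). Its lowest library, treated 3, was also the lowest in the macrophage sum. Close relatives of Cd200r1 can share its reads. Of these, Cd200r4 differed by -0.55 ± 0.62 on the log2 scale (edgeR adjusted p = 0.732), and Cd200r2 and Cd200r3 were below the filter. The adaptors that act behind CD200R1 did not pass the threshold either: Dok1 stood at 33.7, 36.0 and 33.8 CPM in treated libraries, against 30.9, 29.5 and 30.3 CPM in controls (0.19 ± 0.07, edgeR adjusted p = 0.251), and Dok2 had -0.81 ± 0.53 (0.518).

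**Figure D2:**
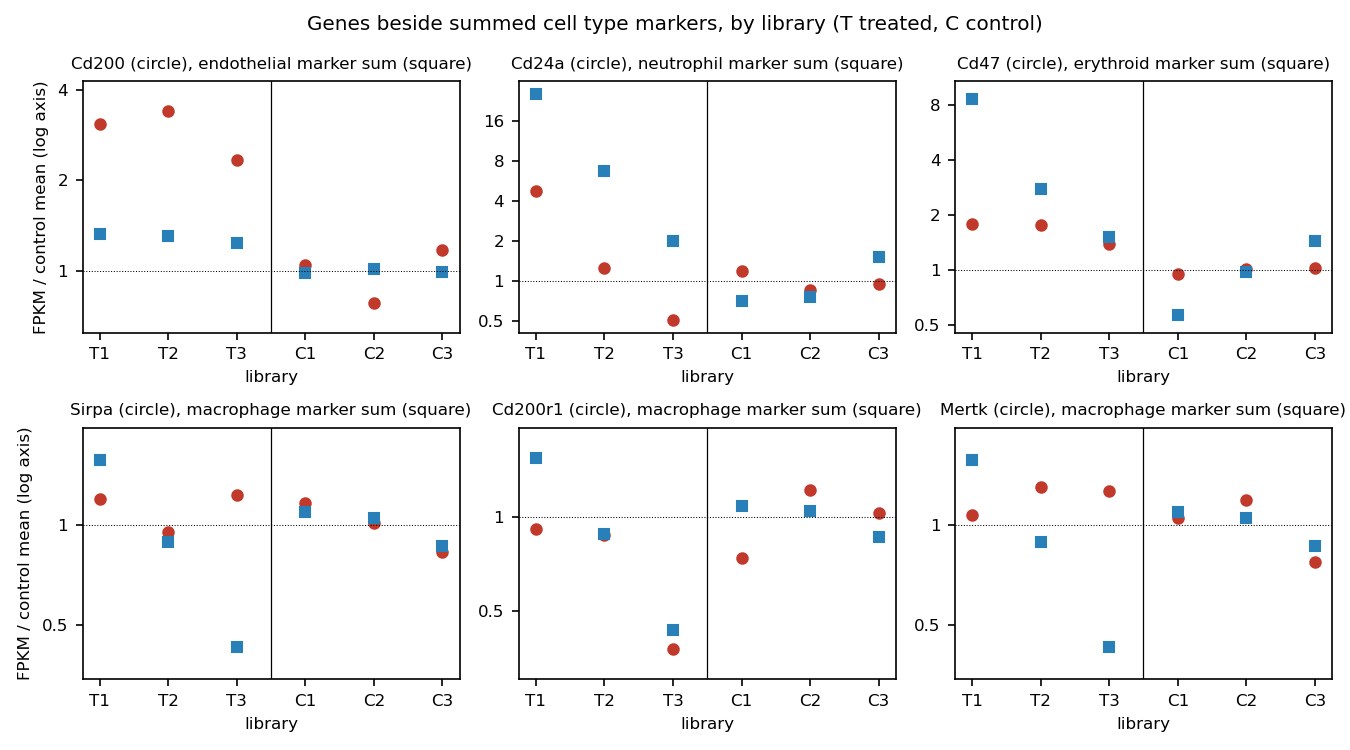
FPKM of a checkpoint gene (red circles) and the summed FPKM of a cell type's markers (blue squares) in each library, divided by the mean of the 3 controls and drawn on a log axis, with treated libraries T1 to T3 on the left and control libraries C1 to C3 on the right. Treated 3 has the lowest macrophage sum (33.6 FPKM) and the lowest Cd200r1 level but the highest Sirpa level (35.1 FPKM), and treated 1 is highest for Cd24a and for the neutrophil sum (68.8 FPKM).

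Cd24a (chromosome 10, 43578284 to 43584265) encodes the mouse CD24 antigen. It differed more between treated libraries than between groups, at 3.87, 1.04 and 0.422 CPM in treated 1, 2 and 3, against 0.973, 0.699 and 0.789 CPM in controls. Treated 1 held the highest and treated 3 the lowest value of all 6 libraries. On the log2 scale the difference was 1.11 ± 0.71, with a 95% interval of -0.53 to 2.75 (edgeR adjusted p = 0.5). It rests on treated 1, since without that library the log2 fold change was -0.17 (edgeR adjusted p = 0.911). Neutrophils, B cells and young red cells carry CD24. The neutrophil sum (7 markers in the table, Camp not among them) was 68.8, 18.2 and 5.44 FPKM in treated 1, 2 and 3, against 1.95 to 4.16 FPKM in controls, and the erythroid sum was likewise highest in treated 1. Of the neutrophil sum, S100a9 alone gave 44.87, 11.51 and 2.71 FPKM in treated 1, 2 and 3. The B cell sum ran from 0.799 to 1.13 FPKM in treated and from 0.943 to 1.06 FPKM in control tumours. The part of these cells in the Cd24a values was not tested. Siglecg, the gene of the mouse receptor for CD24, had 0 to 4 counts in any library and was below the filter.

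Calr (ENSMUSG00000003814, chromosome 8, 84841850 to 84846934, minus strand) had 832.6, 759.4 and 734.3 CPM in treated 1, 2 and 3, against 856.1, 872.3 and 951.9 CPM in control 1, 2 and 3. All treated libraries were below all controls, by a small margin for treated 1. The log2 fold change was -0.20 ± 0.07, a ratio of 0.868 with a 95% interval of 0.778 to 0.968, and it did not pass the threshold over all genes (unadjusted p = 0.0173, edgeR adjusted p = 0.205). These are RNA levels and do not measure calreticulin at the cell surface. Lrp1 (chromosome 10, 127538161 to 127621148), the gene of its engulfment receptor, had 67.7, 76.2 and 60.8 CPM in treated libraries, against 71.0, 64.6 and 55.9 CPM in controls. Its groups overlapped, with a log2 fold change of 0.10 ± 0.11 and a 95% interval of -0.16 to 0.36 (edgeR adjusted p = 0.742). Lrp1, Mertk and Gas6 each overlap a gene on the other strand, whose reads cannot be told apart from theirs where counting ignored strand.

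Of 8 tested genes that work with calreticulin or LRP1, none passed the threshold in either direction. By edgeR 2 of the 8 (Pdia3 and Lrpap1) had an unadjusted p under 0.05, beside 16.0% of all genes. The 8 log2 fold changes lay between -0.25 and -0.08, with a median of -0.17, but those of C1qa, C1qb, C1qc, Stc1 and Gulp1 were above 0 in at least 1 leave-out. C1qa, C1qb and C1qc are also among the 11 macrophage markers, and C1qa ran from -1.10 to 0.16 over the leave-outs. Pdia3, a disulfide isomerase that partners calreticulin in the endoplasmic reticulum, had 802.6, 834.4 and 800.9 CPM in treated libraries, against 887.1, 900.5 and 939.0 CPM in controls (-0.16 ± 0.05, edgeR adjusted p = 0.177). Canx, calnexin, the membrane-bound relative of calreticulin, differed by -0.11 ± 0.05 on the log2 scale (0.326). Lrpap1, the chaperone of LRP1, had -0.19 ± 0.07 (edgeR adjusted p = 0.228). For these 3, as for Calr, the groups did not overlap, beside 11.2% of all genes tested with every treated library below every control.

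Axl (ENSMUSG00000002602, chromosome 7, 25757273 to 25788705, minus strand) had 239.2, 205.6 and 121.6 CPM in treated 1, 2 and 3, against 116.9, 141.2 and 151.0 CPM in control 1, 2 and 3. Treated 1 and 2 were above every control, and treated 3 lay within the control range. The log2 fold change was 0.47 ± 0.22, with a 95% interval of -0.05 to 0.99 (edgeR adjusted p = 0.356). With treated 3 left out it was 0.71 and passed the threshold (edgeR adjusted p = 0.0366), in a fit that called 1.85% of all genes. With treated 1 left out it was 0.26 (edgeR adjusted p = 0.587). Mertk (chromosome 2, 128698956 to 128802894) had 7.85, 9.79 and 9.23 CPM in treated libraries, against 7.71, 8.73 and 5.68 CPM in controls, with overlap. Its log2 fold change was 0.28 ± 0.19, with a 95% interval of -0.16 to 0.72 (edgeR adjusted p = 0.533).

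Gas6 (chromosome 8, 13465374 to 13494490), the ligand gene, had 4.12, 3.45 and 1.94 CPM in treated libraries, against 8.23, 5.81 and 1.72 CPM in controls. Control 1 was highest and control 3 lowest of all 6 libraries, so the controls alone spanned the whole range. On the log2 scale the difference was -0.73 ± 0.53, with a 95% interval of -1.94 to 0.48 (edgeR adjusted p = 0.558). It was -0.24 without control 1 and -1.14 without control 3. Pros1 encodes protein S, another ligand of MERTK. Its level was 38.5 to 42.4 CPM in treated libraries, against 38.2 to 43.7 CPM in controls (0.01 ± 0.08, edgeR adjusted p = 0.956). The third receptor gene of the family, Tyro3, differed by -0.06 ± 0.17 on the log2 scale (0.898). Per length, Pros1 averaged 8.74 FPKM and Gas6 1.10 FPKM in treated tumours, and 8.69 and 1.83 FPKM in control tumours. Of 8 tested genes around these receptors 0 passed the edgeR threshold. By the same test 1 had an unadjusted p under 0.05, beside 16.0% of all genes. That gene, Lgals3, encodes galectin-3, a reported ligand of MERTK, and had 236.1, 328.3 and 197.7 CPM in treated libraries, against 192.0, 189.3 and 179.9 CPM in controls (0.44 ± 0.16, edgeR adjusted p = 0.245).

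**Figure D3:**
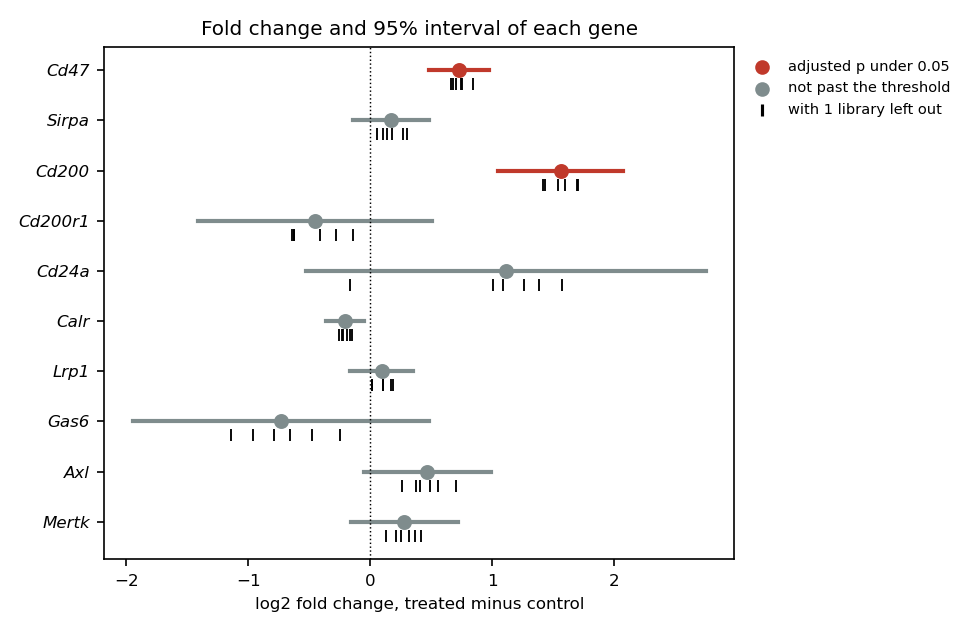
Log2 fold change (treated minus control) of each gene in edgeR, with its 95% interval as a line, red where the adjusted p is under 0.05 and grey otherwise; ticks below each line are the values with 1 of the 6 libraries left out. Cd47 (0.73) and Cd200 (1.56) have intervals clear of 0, as has Calr (-0.20), which did not pass the threshold over all genes, and the Cd24a tick at -0.17 is the value without treated 1.

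The wider machinery of engulfment was described from 8 lists of 79 genes, of which 69 were tested. Of these 69 genes, 1 rose (Thbs1) and 0 fell in edgeR, beside 1.36% and 0.249% of all genes. An unadjusted p under 0.05 was found for 11, of which 5 were lower, beside 16.0% of all genes. DESeq2 called 3 of the 69 higher and 1 lower, beside 4.18% and 2.03% of all genes, and limma-voom 1 and 0, beside 1.21% and 0.244%. The median log2 fold change of the 69 was 0.002. Groups did not overlap for 11 of the 69, beside 23.3% of all genes.

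Among receptors and bridging proteins for phosphatidylserine, 0 of 14 tested genes passed the edgeR threshold and 4 had an unadjusted p under 0.05, beside 16.0% of all genes. Of these 4, Itgb3 and Mfge8 were higher (0.42 and 0.26 on the log2 scale) and Havcr2 and Cd300a lower (-0.58 and -1.24). Itgb3, the integrin beta-3 chain that binds the bridging protein MFG-E8, had 74.0, 85.3 and 68.0 CPM in treated libraries, against 63.9, 56.8 and 49.2 CPM in controls (0.42 ± 0.12, edgeR adjusted p = 0.142). Itgav, its partner chain and the most abundant gene of the list, had 0.10 ± 0.08 (0.593). In the group that sets phosphatidylserine exposure, 0 of 7 passed and 1 had an unadjusted p under 0.05. Tmem30a, the most abundant gene of that list, had -0.09 ± 0.08 (edgeR adjusted p = 0.647). Of 16 genes of the engulfment machinery and Fc receptors 0 passed, and 1 had an unadjusted p under 0.05. That gene was Fcgr1, a high-affinity receptor for immunoglobulin G, with 15.7, 8.40 and 2.21 CPM in treated libraries, against 3.68, 3.23 and 3.58 CPM in controls (1.33 ± 0.57, edgeR adjusted p = 0.311, and 0.0198 without treated 3). Its log2 fold change ran from 0.60 to 1.79 over the leave-outs, with an adjusted p of at most 0.589. Fcgr1 is also 1 of the 11 macrophage markers. Rac1, the GTPase that drives the phagocytic cup, had -0.11 ± 0.05 (edgeR adjusted p = 0.372). B2m and Pirb, the light chain of MHC class I and a mouse receptor that restrains phagocytes on binding it, had 0.01 ± 0.20 (0.987) and 0.56 ± 0.45 (0.605), with 0 of 3 tested genes of that arm past the threshold and 0 at an unadjusted p under 0.05.

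Pairs of members were also compared within each library, as differences of log2(FPKM + 0.1). The 7 pairs were chosen by role, with earlier results of these data known. With 3 against 3 libraries the exact permutation test (two-sided) cannot give a p under 0.1. Cd200 minus Cd200r1 was 2.97, 3.17 and 3.42 in treated 1, 2 and 3, against 1.73, 0.82 and 1.53 in control 1, 2 and 3, without overlap (exact permutation p = 0.1, 0.35 adjusted over the 7 pairs). Calr minus Cd47, an engulfment signal against a restraining one, was 4.59, 4.42 and 4.75 in treated and 5.51, 5.44 and 5.56 in control tumours. These groups did not overlap either, and their means differed by -0.92 (exact permutation p = 0.1, adjusted 0.35). Both pairs contain a gene that rose. Treated 3 lay with its group in both pairs.

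The other 5 pairs overlapped between groups. Cd47 minus Sirpa averaged -1.70 ± 0.35 in treated and -2.23 ± 0.30 in control tumours (SD, n = 3; exact permutation p = 0.2, adjusted 0.35). Gas6 minus Axl was -4.79, -4.80 and -4.80 in treated tumours (SD 0.008), against -2.80, -3.56 and -5.27 in controls (exact permutation p = 0.4, adjusted 0.467). Its difference of -0.92 between groups was -0.38 without control 1 and -1.62 without control 3. Gas6 minus Mertk differed by -0.78 (exact p = 0.3), Calr minus Lrp1 by -0.30 (exact p = 0.2) and Axl minus Mertk by 0.14 (exact p = 0.8). The last reversed with control 1 or treated 1 left out.

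**Figure D4:**
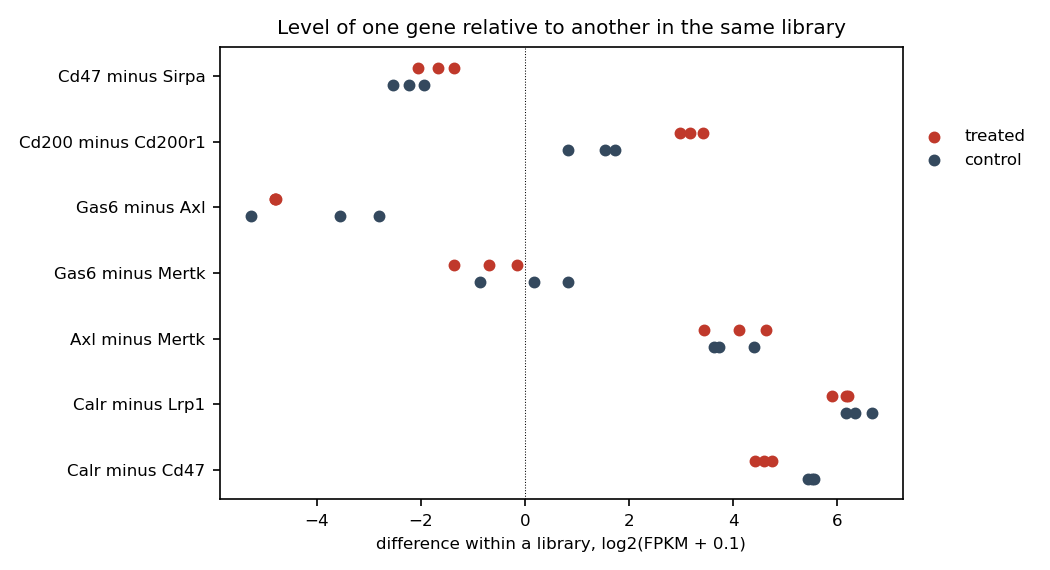
Difference between the levels of 2 genes within each library, in log2(FPKM + 0.1), for 7 pairs, with treated libraries (red) drawn above control libraries (dark blue). Only Cd200 minus Cd200r1 (2.97 to 3.42 against 0.82 to 1.73) and Calr minus Cd47 (4.42 to 4.75 against 5.44 to 5.56) show no overlap among these 7.

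Treated libraries differed among themselves in a way that the gene groups shared in part. Relative to the control mean, on log2 CPM with a prior count of 2, treated 3 was at -1.30 for Cd200r1, -1.15 for Gas6, -0.90 for Cd24a and -0.16 for Axl. The same library was at 1.23 for Cd200 and 0.48 for Cd47, still above every control. Treated 1 and 2 lay close together for Cd47 (0.83 and 0.86) and Cd200r1 (-0.10 and -0.12) and far apart for Cd24a (2.21 and 0.34).

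**Figure D5:**
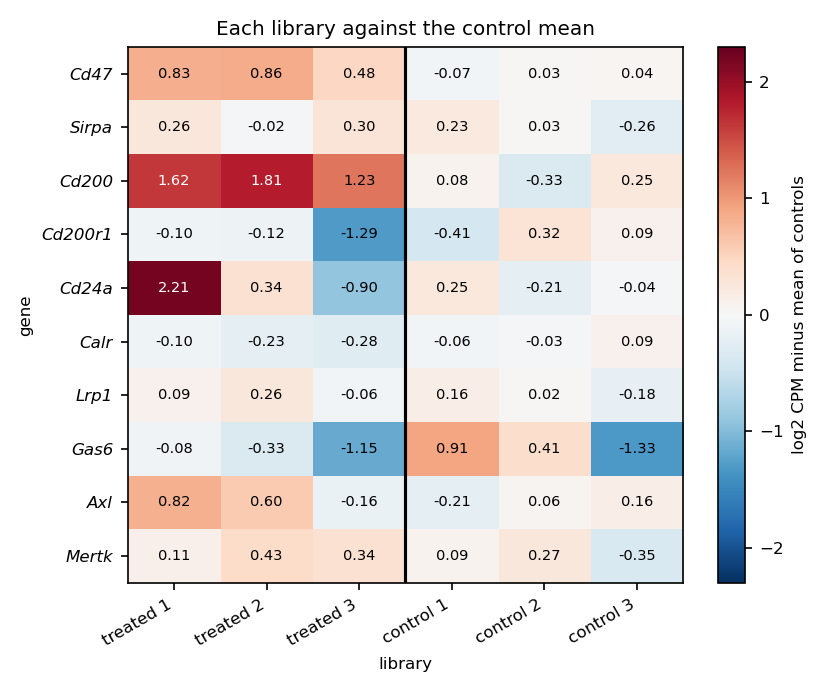
Log2 CPM (prior count 2) of each gene (rows) in each library (columns, treated on the left) minus the mean of the 3 controls, red for higher and blue for lower. Cd47 and Cd200 are red in all 3 treated libraries. Treated 3 is the lowest treated library for 8 of the 10 genes, a count not made over all genes.

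Genes were also ranked by likeness of pattern, among those averaging a log2 CPM of 3 or more. Of 10158 such genes, those whose centred log2 CPM over the 6 libraries lay nearest to Cd47 were Parp3, Relb and Pim1, at root-mean-square differences of 0.061, 0.075 and 0.076. Parp3 encodes a DNA repair enzyme of the poly(ADP-ribose) polymerase family. It had 50.8, 49.8 and 40.8 CPM in treated libraries, against 29.2, 31.3 and 31.6 CPM in controls. Nearest to Cd200 among 10159 genes were Srcap, Mitd1 and Dnajb1, at 0.137, 0.164 and 0.169. Srcap, a chromatin remodeller, had 56.9, 72.2 and 47.4 CPM in treated libraries, against 21.5, 15.7 and 18.6 CPM in controls.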

How the data were processed

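Per the labels' protocols, polyadenylated RNA was made into libraries that mark strand and sequenced as read pairs. Among tools, fastp, StringTie and edgeR are named in the submitters' processing notes, without versions. The aligner, genome build, annotation and the strand setting of counting: not given in the sources used here. The authors deposited raw counts per gene (whole numbers, per the file headers) and FPKM values per gene (per the file headers), which are proportional to the counts within a library and were used for levels between genes. Of the FPKM to count ratios, 99.8 to 99.9% per library matched a constant per gene within 1% (12046 genes). Coordinates are those of the table, of whose genes 90.0% have the same start and end in GENCODE M21 (GRCm38), as do 9 of the 10 members (not Cd47). Overlapping genes on the other strand (Gm16217 in Lrp1, Gm14011 in Mertk, Tmem255b in Gas6) could share reads. Counts were tested in R 4.3.3 with edgeR 4.0.16 (filterByExpr, minimum count 10; TMM factors 0.974 to 1.014; glmQLFit and glmQLFTest on group, all 6 libraries, two-sided), which left 18049 genes. The SE is the log2 fold change over the square root of F. The fits were tested on simulated data. Alternatives were DESeq2 1.42.0, limma 3.58.1 (voom, and log2(FPKM + 0.1)), other scalings and filters, a replicate block, and each library left out. The members, the 8 lists and the tests were chosen with earlier results of these data known. Named genes are the 10 members and, from each list, called genes, the most abundant gene and that of smallest p; other list genes and markers are named for their role, their unadjusted p or groups that did not overlap, after their values were seen. Precision for abundant genes is set by the spread between libraries, and for Cd200r1 and Cd24a also by their low counts.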

Additional observations from a re-analysis of the deposited data

How the results depend on the processing

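Cd47 and Cd200 kept their direction in each alternative run, and both stayed past the threshold with DESeq2, limma-voom with and without sample quality weights, limma on log2(FPKM + 0.1), RLE or total-count scaling, and a stricter or no filter. The number of the 10 genes called higher was 0 with a replicate block (edgeR adjusted p = 0.0683 for Cd47 and 0.0832 for Cd200) and 0 to 3 with each library in turn left out (0 without treated 2 or any 1 control, and 3, with Axl, without treated 3), and the number called lower was 0 in each setting run. The shared numbers do not show pairs: correlations of same-numbered libraries' deviations from their group means were 0.086, -0.164 and -0.107, and not every library correlated best with its own number. Over all genes, calls went to 137 with the block, beside 291 without it. Of the 69 list genes, DESeq2 called 3 higher (Thbs1, Lgals3 and Itgb3) and 1 lower, sample quality weights called 2 lower, and the leave-outs called 1 to 2 higher and 0 to 2 lower. Without treated 1 those called lower were Cd300a and Dock2, and without treated 3 those called higher were Thbs1 and Fcgr1; Cd300a and Dock2 are named after their values were seen. The Cd24a log2 fold change ran from -0.17 to 1.58 over the leave-outs, and the difference for Axl minus Mertk from -0.15 (without treated 1; -0.005 without control 1) to 0.45. The cause of these shifts was not tested. Calls over all genes were 174 without filter, 792 with sample quality weights, 1121 with DESeq2 and 97 to 347 over the leave-outs. Counts of 28 to 253 per library limit Cd24a, and 29 to 90 limit Cd200r1.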
